A study of Homo sapiens with 12 samples.

Results

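Fragmented control domains were autosomal regions of the shNT list, each under 350 kb wide, that overlapped at least 2 separate regions of the shCDK12 list by 1 bp or more. They were chosen by the called positions in the shNT and shCDK12 lists, so their number, their gaps and their pieces are descriptions of that choice and were not tested. The choice found 324 domains among 3606 autosomal shNT domains under 350 kb (8.99%, Wilson 95% interval 8.09 to 9.96), out of 3874 shNT regions and 18185 regions in the 4 lists. A further 3058 of the 3606 domains overlapped exactly 1 shCDK12 region and are called one-piece domains here, and 224 overlapped none.

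The regions were measured by EdU-HU-seq in U2OS-MycER cells, a human osteosarcoma line which carries Myc as a fusion with an estrogen receptor fragment that 4-hydroxytamoxifen (OHT) binds, so that OHT activates MycER. All cells received 1 µg/mL doxycycline, and 100 ng/mL nocodazole for 8 h with a release of 24 h. They were also given 25 µM EdU and 2 mM hydroxyurea (HU). The 4 groups had 3 samples each and differed in 2 ways: cells expressed a non-targeting hairpin (shNT) or one that silences CDK12 (shCDK12), and OHT was either left out or given at 300 nM for 40 h. The deposited regions are 1 merged list per group, so no value below has a replicate error, intervals cover counting over domains or gaps only, and no difference between groups was tested.

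As background, HU empties the nucleotide pool and stalls replication forks, so that newly made DNA marked with EdU is found near the origins that fire early in S phase. Early-firing origins lie mostly in open, actively transcribed chromatin and often cluster, and a called region of EdU-HU-seq is therefore an early-replicating domain rather than a single origin. Where regions are called from reads in windows, a stretch with few reads inside a broad domain splits it into separate regions. CDK12 is a cyclin-dependent kinase that phosphorylates RNA polymerase II and promotes transcription elongation, chiefly of long genes and of genes for DNA repair. High Myc activity brings replication and transcription into conflict.

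The lists differed in depth. The autosomal regions of shNT held 17261176 reads and those of shNT + OHT 49994993, while shCDK12 had 13220717 and shCDK12 + OHT 28573223. The median autosomal region held 22.4, 52.5, 17.2 and 33.1 reads per kb in the same order. The lists also reached down to different scores, the lowest listed score being 146, 99.9, 66.1 and 137, again in that order. Depth and score therefore moved with the groups. With regions under the highest of these minimum scores left out of every list, the number of fragmented domains was 220 instead of 324. That kept all 3874 shNT regions and 3814 of 4896 shCDK12 regions. The part of depth in the splitting was not tested. No neighbouring regions of any list lay closer than 4.4 kb. The gap setting used in calling is not given in the sources used here.

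Most fragmented domains fell into 2 pieces. Of the 324, 300 overlapped 2 shCDK12 regions and 24 overlapped 3. The pieces were separated by 348 gaps, a gap being the stretch inside the domain between neighbouring shCDK12 regions. The 324 domains covered 51.5 Mb, which was 15.3% of the 336 Mb in all 3606 domains.

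**Figure D1:**
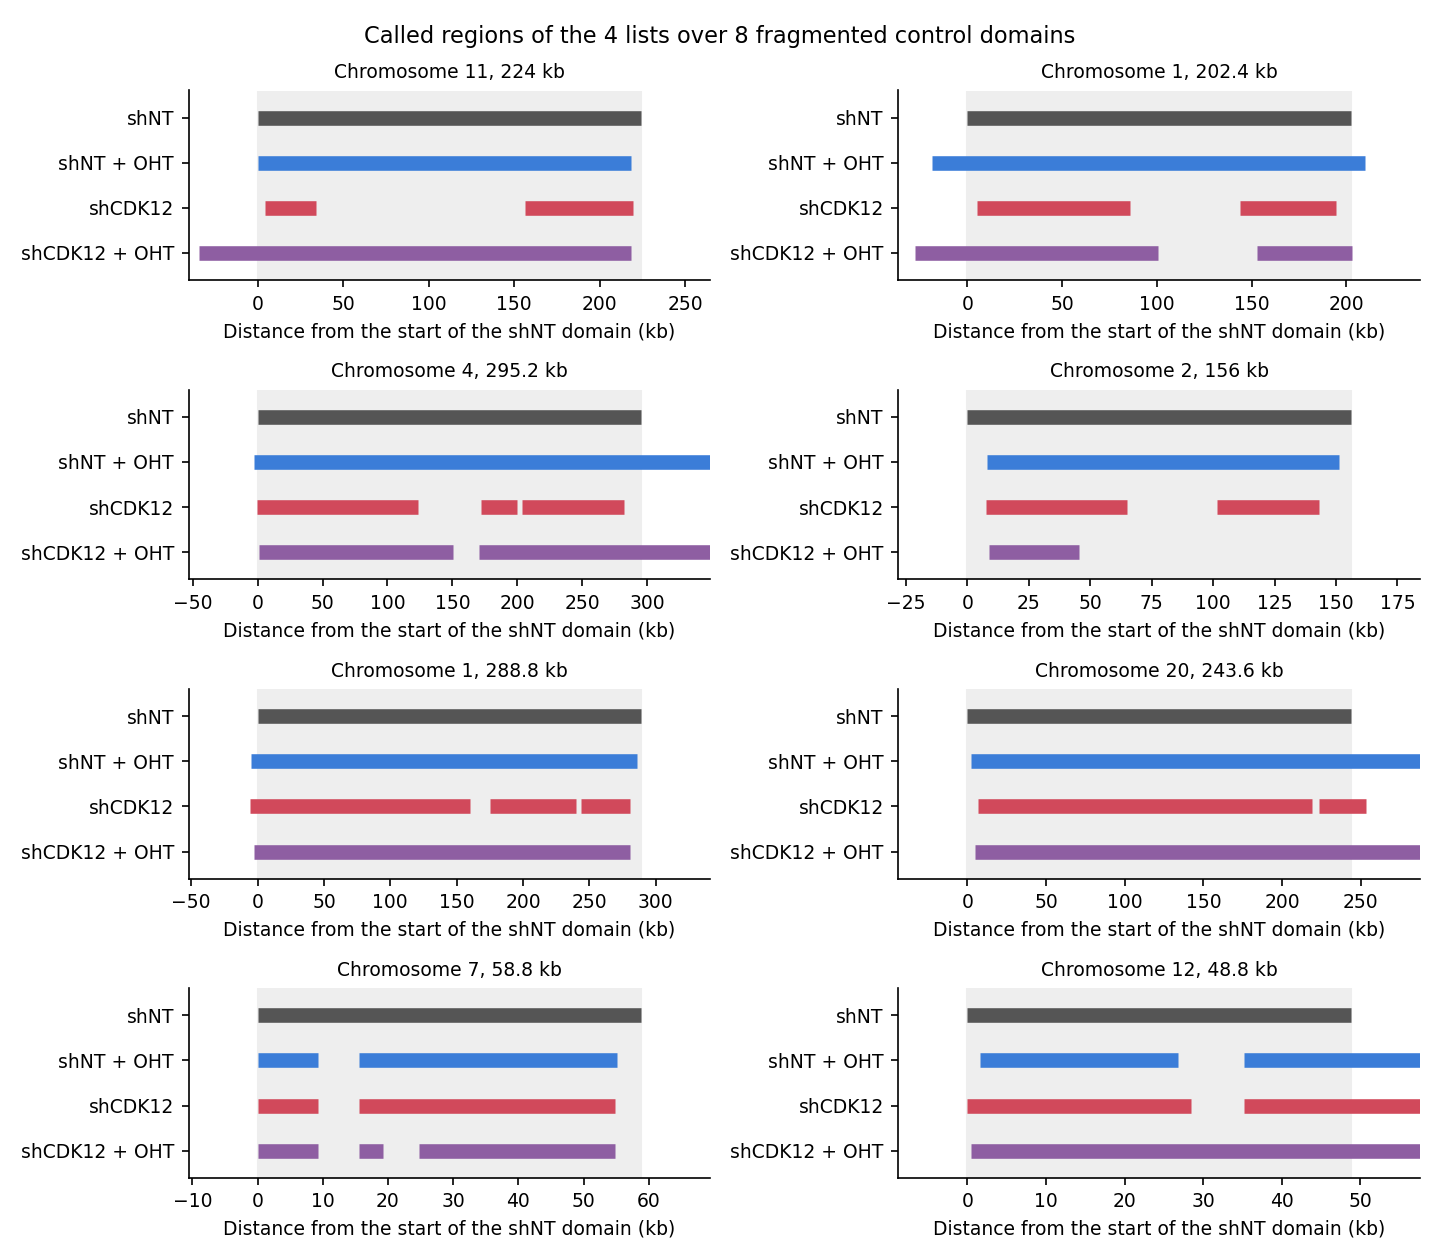
Each panel shows one fragmented control domain (grey background) with the regions of the 4 lists as bars, against distance from the domain's start in kb; bars that reach the panel's edge go on beyond it. The shCDK12 bars leave 1 or 2 gaps in every panel, while the lists with OHT cover all of the gap on chromosome 11 (224 kb wide domain) and neither covers any of it on chromosome 7.

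The domain with the widest gap lay at chr11:95867601-96091600 and was 224 kb wide. In shNT it was 1 region with 4793 reads, or 21.4 reads per kb. In shCDK12 it was left with a piece of 30 kb at 13.1 reads per kb and a piece of 63.2 kb at 18.6 reads per kb, on both sides of a gap of 122 kb that took up 54.5% of the domain. The gap was fully covered in both lists with OHT, by a region of 218 kb at 58.3 reads per kb in shNT + OHT and by a region of 252 kb at 32.7 reads per kb in shCDK12 + OHT. The split was thus present in the shCDK12 list without OHT and in no other list.

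The next 2 widest gaps behaved otherwise. At chr1:224647201-224849600 a gap of 58 kb was fully covered in shNT + OHT, whereas in shCDK12 + OHT 24.8% of it was covered and the domain was still in 2 regions. At chr4:7025601-7320800 the wider of 2 gaps measured 48.4 kb, was covered throughout in shNT + OHT and to 58.7% in shCDK12 + OHT. In both domains the region of shNT + OHT ran across the whole gap, while shCDK12 + OHT had 2 regions that covered only its flanks.

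Most gaps were narrow. The median gap was 6 kb wide (order-statistic 95% interval 5.6 to 6.4, n = 348 gaps), with quartiles at 4.8 and 15.3 kb and a range of 4.4 to 122 kb. With shCDK12 regions up to 10 kb apart joined into 1, 111 fragmented domains were left, with a median gap of 20 kb. Exactly 4.4 kb, the narrowest gap in any list, was found for 66 gaps (19.0%, Wilson interval 15.2 to 23.4). Gaps of up to 6 kb numbered 181 (52.0%) and gaps of up to 10 kb numbered 237 (68.1%). Gaps over 20 kb were few, 53 in all and 2 of them over 50 kb, yet they held 43.9% of the 3.97 Mb of gap length, against 22.6% in the 181 gaps of up to 6 kb.

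**Figure D2:**
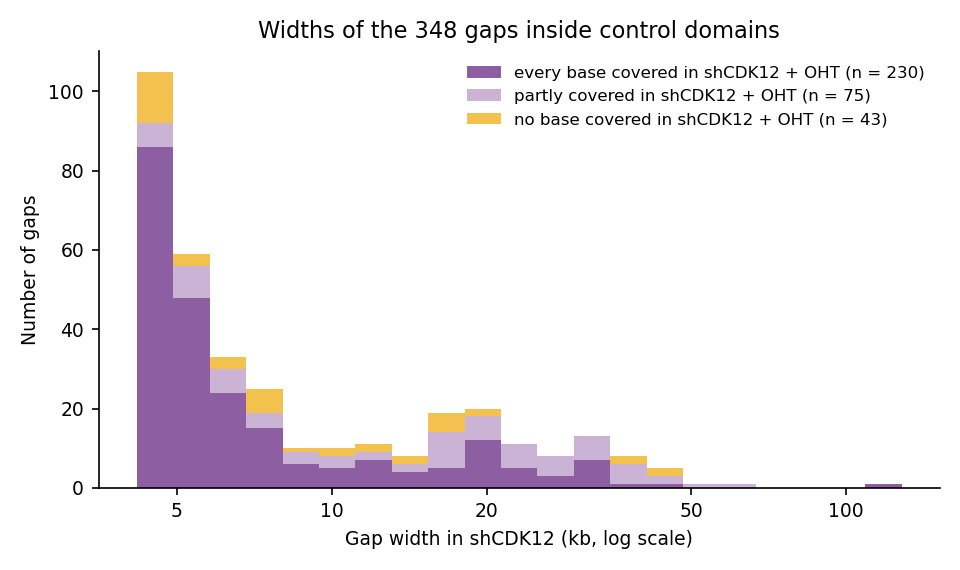
Number of gaps by width in shCDK12 in kb (log scale), with each bar divided by how much of the gap was covered in shCDK12 + OHT. The bars are tallest at the left end, next to the narrowest width of 4.4 kb, and the 43 gaps with no base covered are spread over widths up to 44.8 kb.

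The gaps took a modest part of each domain. The median domain had 6.29% of its length in gaps (interval 5.45 to 7.32, n = 324), with under 5% in 134 domains and over 20% in 34. The shCDK12 regions covered a median of 88.3% of a fragmented domain and 93.6% of a one-piece domain. At the ends of the domains, a median of 5.6 kb was lost in fragmented domains and 5.2 kb in one-piece domains, which is about the same in both. In 224 of the 324 domains a piece reached past the domain's end, as did the region over 1766 of the 3058 one-piece domains.

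The largest share in gaps was found at chr12:102225601-102241600, a domain of 16 kb with 75% of its length in a gap. Its first piece was a single window of 0.4 kb, and its second overlapped only the last part of the domain, so the split there was of a kind in which a region narrower than the gap counted as a piece. In shCDK12 + OHT 1 region of 40.4 kb covered the gap, whereas in shNT + OHT 20% of the gap was covered. The third largest share, 47.6%, was at chr14:23734001-23808000, where a gap of 35.2 kb was covered to 65.9% in shNT + OHT and to 76.1% in shCDK12 + OHT. The narrowest fragmented domain, chr17:18984801-18997600, measured 12.8 kb and had the minimal gap of 4.4 kb, which was covered in shNT + OHT and had no base covered in shCDK12 + OHT.

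The gaps lay more often in the interior than at the edges. Numbered from the domain's lower coordinate in 6 equal parts, the gap centres numbered 29, 49, 67, 92, 66 and 45. The central 2 of these parts together held 159 gaps, or 45.7% (Wilson interval 40.5 to 50.9), against 78 in the lower 2 and 111 in the upper 2. The median distance from a gap's centre to the nearest end of its domain was 42.1 kb (38.6 to 47.8), and 40 centres lay within 10 kb of an end. A gap lies wholly between 2 pieces that both overlap the domain, so a wide gap cannot be centred at an edge, and the central share rose with gap width in this set, from 38.1% for gaps up to 6 kb through 46.4% (over 6 to 10 kb) and 50% (over 10 to 20 kb) to 66.0% for those over 20 kb.

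**Figure D3:**
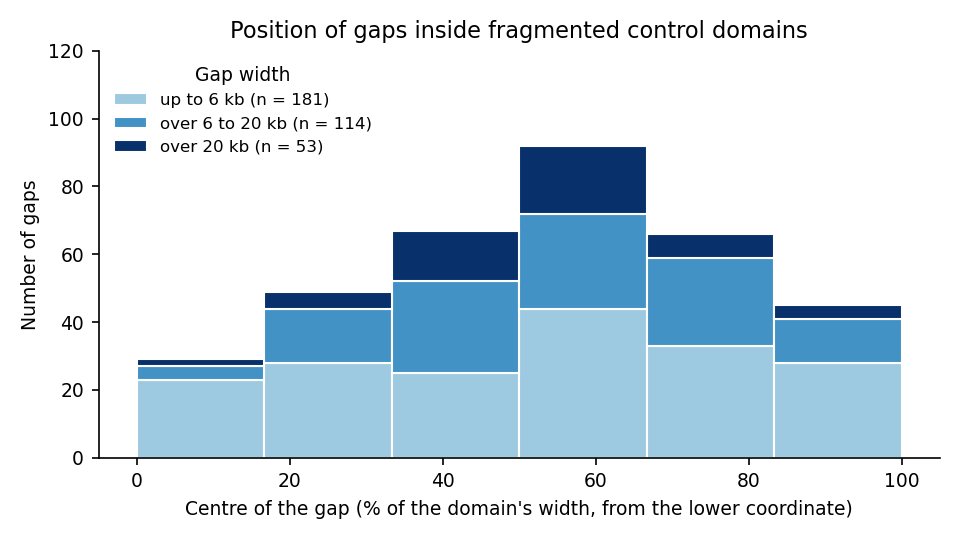
Number of gaps by the position of their centre in 6 equal parts of the domain (in percent of its width, from the lower coordinate), with bars divided by gap width. The tallest bar, with 92 gaps, is the fourth of the 6, and gaps over 20 kb are rare in the outer parts.

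The pieces were of unequal size and density. The 672 overlaps came from 662 distinct shCDK12 regions, 10 of which were a piece of 2 fragmented domains at once. The pieces had a median width of 61.6 kb (57.2 to 66.4) and a median density of 16.1 reads per kb, and 14 were at most 10 kb wide. In the 300 domains with 2 pieces, the smaller one made up a median of 29.5% of the length of both inside the domain (26.5 to 33.5). Its share was under 10% in 50 domains and at least 40% in 87. The shorter piece was also the less dense one in 206 of the 300, with medians of 14.3 reads per kb (13.8 to 15.1) for shorter and 19.0 (18.1 to 20.5) for longer pieces. Within a domain the densest piece exceeded the least dense by a median of 1.38 times (1.32 to 1.43), and by at least 2 times in 69 domains.

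Wider control domains were fragmented more often. A wider domain has more room to overlap separate shCDK12 regions, so a rise with width is partly set by the choice. The number of gaps per length of domain was not compared between width classes. The share of fragmented domains was 1.56% of the 1092 domains under 50 kb, 5.24% of 1318 at 50 to 100 kb, 14.05% of 541 at 100 to 150 kb, 23.6% of 314 at 150 to 200 kb and 25.8% of 341 at 200 to 350 kb. The median width was 149.4 kb (137.6 to 162.8) for fragmented and 69.6 kb (68 to 72) for one-piece domains. The median gap was 5.2, 5.6, 7.2, 6.4 and 6 kb over the same width classes. Above the limit of 350 kb, 70 of 190 autosomal shNT domains were split (36.8%), some into as many as 4 regions. The widest fragmented domain inside the limit, chr6:33505601-33853600, measured 348 kb and had a gap of 5.6 kb at 96.1% of its width, and the narrowest split domain outside it, chr12:65858401-66214400, measured 356 kb, with 64.9 reads per kb and 3 pieces.

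The first 3 domains with 3 pieces, by position, had from 16.4 to 29.6 reads per kb in shNT. At chr1:115588001-115749200 (161.2 kb, 29.6 reads per kb in shNT) the 3 pieces held 11.9, 13.2 and 27.9 reads per kb. The wider of its gaps, 36 kb, was covered to 52.2% in shNT + OHT and to 41.1% in shCDK12 + OHT. The domain was in 2 regions in both lists, but at different places. In shNT + OHT they were separated inside the 36 kb gap. In shCDK12 + OHT they were separated at the other gap of 6 kb, and no region lay over the first piece. At chr1:210351201-210640000 (288.8 kb, 29.0 reads per kb) gaps of 15.2 and 4.4 kb were both fully covered in both lists with OHT. At chr2:64483201-64674800 (191.6 kb, 16.4 reads per kb) shCDK12 + OHT had 1 region over the whole domain, whereas shNT + OHT had 2 regions separated inside the 20 kb gap, 74% of which was covered. The first of these domains was thus split with OHT in both lists and the third in shNT + OHT.

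The lists with OHT took no part in the choice of the domains. In shCDK12 + OHT, 115 of the 324 fragmented domains overlapped at least 2 regions (35.5%, Wilson interval 30.5 to 40.8), against 5.77% of all 3606 domains and 2.94% of one-piece domains (90 of 3058, interval 2.401 to 3.604). In shNT + OHT, 52 of the 324 did so (16.0%, 12.5 to 20.4), against 3.27% of all domains and 1.96% of one-piece domains (60 of 3058, 1.53 to 2.52). Splitting recurred in fragmented domains above the background in both lists, with intervals that did not meet those of the one-piece domains. Both comparisons use the same shNT list for the domains' limits.

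The difference between fragmented and one-piece domains was also seen among domains of similar width. Split shares in shCDK12 + OHT were 5.88% against 0.217% under 50 kb (1 of 17 fragmented domains), 20.3% against 2.28% at 50 to 100 kb, 35.5% against 5.22% at 100 to 150 kb, 43.2% against 7.08% at 150 to 200 kb and 46.6% against 7.91% at 200 to 350 kb. In shNT + OHT the shares from 50 kb upwards were 10.1% against 1.35%, 17.1% against 4.13%, 22.97% against 4.17% and 15.9% against 3.95%. Under 50 kb they were 5.88% against 0.542% in shNT + OHT, also from 1 of 17 fragmented domains. The fragmented domains had the higher share in every width class of both lists.

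Splits were more frequent in shCDK12 + OHT than in shNT + OHT. Of the 324 domains, 85 were split in shCDK12 + OHT alone, 22 in shNT + OHT alone, 30 in both and 187 in neither. The shCDK12 + OHT regions left 121 gaps inside the fragmented domains, 94 of which overlapped a gap of shCDK12, and the shNT + OHT regions left 53, of which 46 did. Inside the fragmented domains, the gaps seen with OHT were therefore mostly at the places where the shCDK12 list without OHT was also split. Each of these domains holds a shCDK12 gap by the choice. Over all 3606 domains, shCDK12 + OHT left 216 gaps and shNT + OHT left 120. Domains that are not fragmented hold no gap between shCDK12 regions, so the statement does not extend to all domains. The shCDK12 + OHT list held fewer reads than shNT + OHT, and the part of depth in its more frequent splits was not tested.

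Most individual gaps of shCDK12 were fully covered in the lists with OHT. Both of these lists held more reads than shCDK12, and the part of depth in this was not tested. In shCDK12 + OHT every base was covered in 230 of 348 gaps (66.1%, Wilson interval 61.0 to 70.9), 75 were partly covered, and 43 had no base covered (12.4%, 9.30 to 16.2). In shNT + OHT every base was covered in 284 (81.6%, 77.2 to 85.3), 47 were partly covered, and 17 had no base covered (4.89%, 3.07 to 7.68). By length, 69.5% of the gap length was covered in shCDK12 + OHT and 89.3% in shNT + OHT. As a background, all 2788 gaps of up to 122 kb between neighbouring autosomal shCDK12 regions, these 348 included, were fully covered in 26% of cases in shCDK12 + OHT and 20.4% in shNT + OHT, and had no base covered in 19.9% and 23.3%. These background gaps were wider, with a median of 36.4 kb, and 453 of them lay wholly under shNT regions.

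All gaps inside control domains lie under an shNT region by the choice, whereas 863 background gaps had no base covered in shNT. The 453 background gaps wholly under shNT regions were fully covered in 82.8% in shNT + OHT and 63.4% in shCDK12 + OHT, close to the 81.6% and 66.1% of the 348 gaps, which are part of them. The other 105, outside the fragmented domains, were fully covered in 86.7% and 54.3%. Their median width was 7.2 kb, against 6 kb for the 348 gaps. They include gaps of shNT domains of 350 kb or more that were also split in shCDK12 and were left out by the width limit. Full cover was thus as common among gaps under shNT regions outside the fragmented domains in shNT + OHT, and somewhat less common in shCDK12 + OHT, a difference that was not tested.

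By width class, the gaps were set beside all background gaps, whatever their state in shNT. Gaps up to 6 kb were fully covered in 85.6% (79.8 to 90.0, n = 181) against a background of 67.8%, gaps over 6 to 10 kb in 85.7% against 54.9%, gaps over 10 to 20 kb in 72.4% against 26.0% and wider gaps in 73.6% (60.4 to 83.6, n = 53) against 5.87%. The shares in shCDK12 + OHT were 80.7% (74.3 to 85.8) against 75.1%, 62.5% against 51.8%, 51.7% against 33.7% and 35.8% (24.3 to 49.3) against 11.7%. The distance from the background was largest for wide gaps in shNT + OHT, and in shCDK12 + OHT the interval held the background value for both classes up to 10 kb. This distance is partly set by the choice. Gaps inside the domains all lie under an shNT region, and most background gaps do not lie wholly under one. For gaps over 20 kb the 2 lists stood apart, with 39 of 53 fully covered in shNT + OHT and 19 of 53 in shCDK12 + OHT, but the background of this class holds many wider gaps than those inside the domains.

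**Figure D4:**
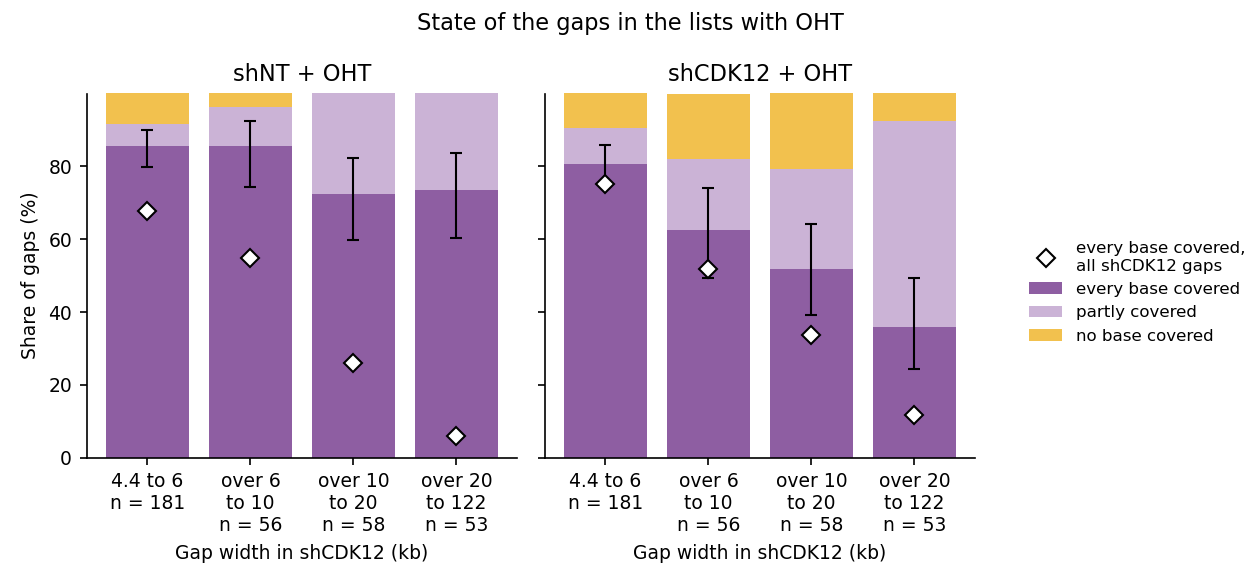
Share of gaps in percent, by gap width in shCDK12 in kb, that were fully covered, partly covered or had no base covered in each list with OHT; error bars are Wilson 95% intervals of the fully covered share, and diamonds give that share for all 2788 gaps between neighbouring shCDK12 regions. Fully covered shares fall from 80.7% to 35.8% with gap width in shCDK12 + OHT and from 85.6% to 73.6% in shNT + OHT. The diamonds take in gaps whatever their state in shNT, whereas all gaps inside the domains lie under an shNT region.

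The 43 gaps with no base covered in shCDK12 + OHT were somewhat wider than the covered ones, with a median of 7.2 kb (5.6 to 11.2) against 5.2 kb (5.2 to 5.6). An uncovered gap does not always mean a split domain, because a flanking piece may be missing as well. Both flanking pieces were still overlapped by a shCDK12 + OHT region at 29 of the 43 gaps, 1 flank at 10 and neither at 4. The 17 uncovered gaps of shNT + OHT were all narrow, the widest at 6.8 kb, with both flanks overlapped at 11, 1 at 5 and neither at 1.

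Taking both lists gap by gap, 202 of the 348 gaps were fully covered in both and 5 had no base covered in either. A further 27 gaps were fully covered in shNT + OHT with no base covered in shCDK12 + OHT, and 11 showed the reverse. Per domain, every gap was fully covered in shCDK12 + OHT in 211 of 324 domains and uncovered in 40, and the numbers in shNT + OHT were 260 and 16. Full cover was the common outcome in both lists, and uncovered gaps were the smaller class in both.

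Of the 5 domains whose gaps had no base covered in any list but shNT, the one with the widest gap was chr7:102227601-102286400, 58.8 kb wide with 29.3 reads per kb in shNT. A piece with the same limits, 9.2 kb long, was called there in shCDK12 (14.6 reads per kb), shNT + OHT (79.5) and shCDK12 + OHT (35), followed in each by the same gap of 6.4 kb. The gap's limits matched to the window in 3 separately called lists, so the shNT list was the odd one out at this place. The gap at chr7:91258001-91273200 (4.8 kb, in the middle of a domain of 15.2 kb) was uncovered in both lists with OHT, and neither list had a region over the second piece. At chr3:185217601-185307600 the shCDK12 gap of 4.4 kb was wider in both lists with OHT, and both flanks were present.

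Domains with large gaps fully covered in both lists with OHT included, after the one on chromosome 11, chr1:202867201-203068800 and chr16:86756401-87060000. The first had a gap of 42.4 kb in shCDK12 and was overlapped by 1 region of 310 kb in shNT + OHT and 1 of 469.2 kb in shCDK12 + OHT, both reaching far past the domain's upper end. The second had a gap of 38 kb at 57.4% of its width. That gap was covered in shCDK12 + OHT, but the domain was again in 2 regions there, divided just below the place of the shCDK12 gap.

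Gaps covered in shNT + OHT and uncovered in shCDK12 + OHT were widest at chr2:237545601-237701600, where a gap of 36.8 kb lay between pieces of 13.4 and 11.3 reads per kb. In shNT + OHT 1 region of 143.2 kb at 54.8 reads per kb spanned it, and in shCDK12 + OHT only 1 region of 36.4 kb at 23.8 reads per kb remained, over the lower piece. At chr20:56515201-56806800 the gap of 34.8 kb was uncovered in shCDK12 + OHT, both flanking pieces were uncovered too, and 1 region of 104.8 kb covered only the domain's upper end. At chr5:72546001-72792000, a denser domain with 36.5 reads per kb in shNT, gaps of 11.2 and 5.6 kb and the piece between them were all without a shCDK12 + OHT region. In these 3 domains less of the control domain was covered in shCDK12 + OHT than in shCDK12 alone.

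The reverse pattern was seen with narrow gaps. At chr12:37990001-38038800 a gap of 6.8 kb was uncovered in shNT + OHT, whose regions of 32.9 and 27.4 reads per kb stopped at about the same places as the shCDK12 pieces, and was spanned in shCDK12 + OHT by 1 region of 64 kb at 36.4 reads per kb. At chr3:4991201-5129200 a gap of 6 kb at 96.1% of the domain's width was uncovered in shNT + OHT, whose region ended where the gap began. At chr12:12690401-12778800 a gap of 6 kb lay at 12.0% of the width, and the shNT + OHT region began only above it. At the last 2 domains the gap was thus at an edge, next to a shCDK12 region that lay mainly outside the domain.

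By read density the fragmented domains were at first sight average. Their median in shNT was 23.9 reads per kb (21.4 to 25.6), against 22.5 (21.9 to 23.1) for one-piece domains and 21.6 (21.1 to 22.1) for all 3606, while the 224 domains without a shCDK12 region were at 14.9 (14.6 to 15.6). From one width class to the next, the median density of one-piece domains rose in every list, although single domains of 0.4 kb were among the densest, and fragmented domains are wide. Within width classes they were less dense than one-piece domains in all 5 classes of shNT, with ratios of medians from 0.776 to 0.882. At 200 to 350 kb, for example, the medians were 31.7 reads per kb (29.0 to 34.4, n = 88) for fragmented and 38.0 (35.6 to 42.5, n = 253) for one-piece domains, and at 50 to 100 kb they were 17.0 (16.5 to 18.6, n = 69) and 20.5 (19.7 to 20.9, n = 1183).

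The lower density was also present in the lists that did not choose the domains. The ratios of medians over the 5 width classes ran from 0.751 to 0.948 in shNT + OHT and from 0.743 to 0.899 in shCDK12 + OHT, and were 0.763 to 0.967 in shCDK12 itself. At 100 to 150 kb in shNT + OHT, fragmented domains had a median of 56.3 reads per kb (52.7 to 64.8) and one-piece domains 74.9 (71.3 to 78.5). At 150 to 200 kb in the same list the medians were 81.5 (68.6 to 90.7) and 86.0 (78.7 to 92.8), which the intervals do not separate. The intervals of the 2 kinds of domain met under 50 kb and at 150 to 200 kb in all 4 lists, and were apart in the other 3 width classes of every list.

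**Figure D5:**
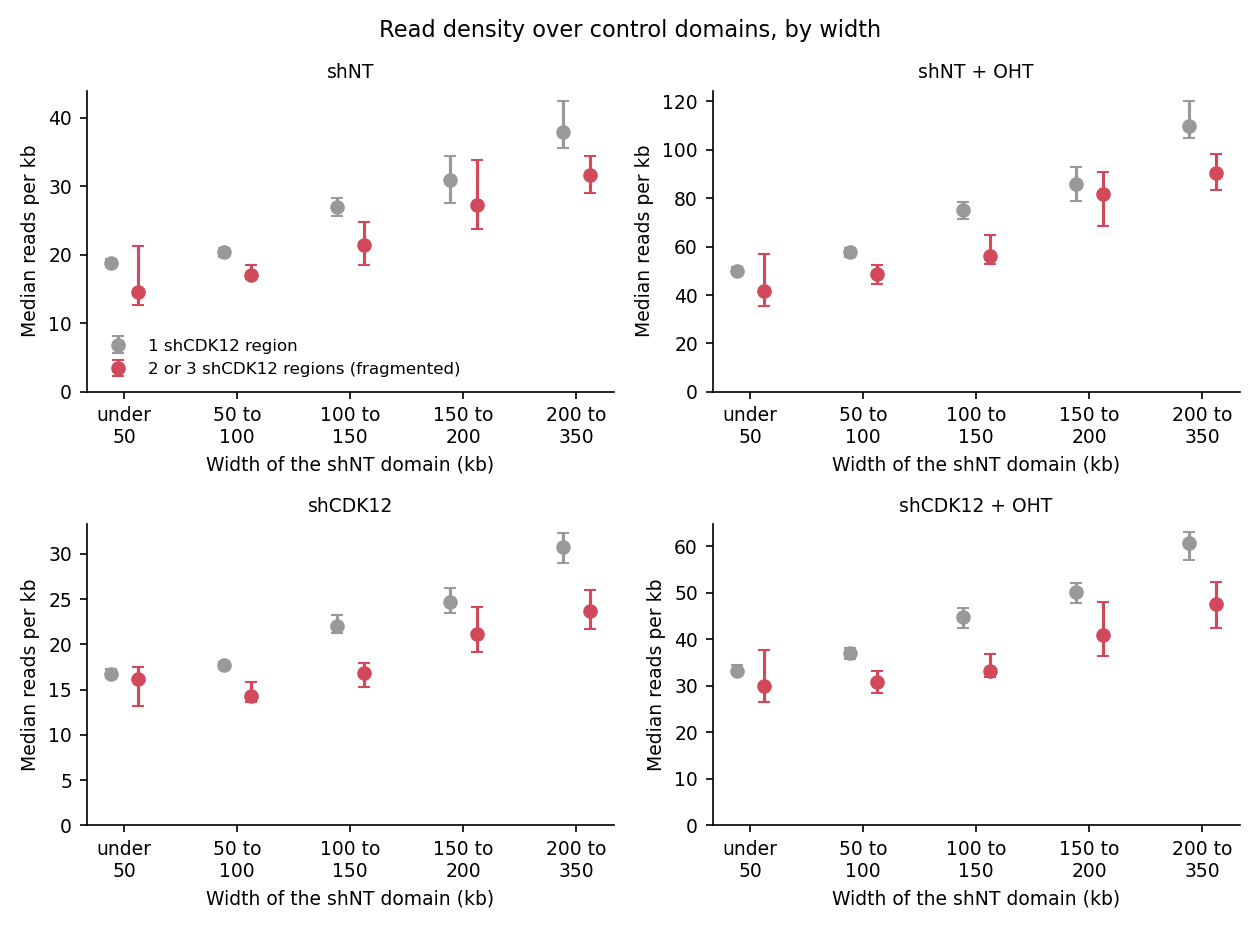
Median reads per kb of the regions over each control domain, by the domain's width in kb, in the 4 lists; red points are fragmented domains and grey points one-piece domains, with order-statistic 95% intervals. Red lies below grey in every width class of every list, and the vertical axes differ between lists because the lists differ in depth.

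Between lists, the density of the regions overlapping a fragmented domain changed by about the same factor as for a one-piece domain. Each region was taken whole, with any part outside the domain, and gaps between regions were left out. The ratio of shNT + OHT to shNT had a median of 2.75 (2.70 to 2.81) in fragmented and 2.74 (2.72 to 2.76) in one-piece domains, and that of shCDK12 + OHT to shCDK12 was 2.04 (1.98 to 2.08) and 1.99 (1.98 to 2.01). Over all widths the ratio of shCDK12 to shNT, the lists of the choice itself, was 0.803 (0.782 to 0.838) in fragmented against 0.858 (0.850 to 0.866) in one-piece domains, and that of shCDK12 + OHT to shNT + OHT was 0.583 (0.562 to 0.608) against 0.624 (0.616 to 0.631). Both ratios were lower in wide than in narrow one-piece domains, and by width class the intervals of the 2 kinds of domain overlapped for shCDK12 + OHT to shNT + OHT in all 5 classes, for example 0.539 (0.512 to 0.569) against 0.541 (0.523 to 0.559) at 200 to 350 kb. For shCDK12 to shNT they overlapped in every class but the one under 50 kb, where the 17 fragmented domains were higher, at 1.03 (0.923 to 1.18) against 0.886 (0.871 to 0.902). For the called regions, no lower ratio in fragmented domains was thus seen beyond these intervals at matched width. Bases in shCDK12 gaps, which one-piece domains do not have, are absent from the shCDK12 values and present in those of shNT. The ratios therefore cannot show whether density over the whole domain fell further in fragmented domains. All of these ratios contain the difference in depth between lists.

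In the 2 densest fragmented domains the gap set off a thin upper margin. At chr20:36703201-36946800, the densest with 131.4 reads per kb in shNT, the pieces in shCDK12 had 66.4 reads per kb over 212.4 kb and 14.2 over 30 kb, with a gap of 4.8 kb at 90.8% of the width. At chr1:94684801-94851600 (99.3 reads per kb) the pieces had 50.2 and 11.6 reads per kb and a gap of 4.4 kb at 87.9%. Both of these gaps were covered in both lists with OHT. At chr1:94123601-94350800 (95.7 reads per kb) the gap of 6 kb lay further inside, at 59.6%, and the gap's limits in shCDK12 + OHT were the same to the window, between regions of 67.9 and 53.7 reads per kb, while shNT + OHT had 1 region of 219.2 reads per kb.

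The least dense fragmented domains were chr12:7996801-8072000 with 10.5 reads per kb in shNT, chr18:13248401-13319200 with 10.99 and chr12:114188001-114249600 with 11.4. Their gaps of 11.2, 5.6 and 5.2 kb were all fully covered in shCDK12 + OHT, by regions of 253.6, 199.6 and 107.6 kb that reached well beyond the domain. In shNT + OHT the first was covered to 60.7%, the second fully and the third not at all.

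In shCDK12 some fragmented domains were joined to a neighbour while being split inside. A region over the domain also reached another shNT region in 69 of the 324 in shCDK12 (21.3%, 17.2 to 26.1), against 8.37% of one-piece domains. The shares were 21.3% against 13.1% in shNT + OHT and 33.0% (28.1 to 38.3) against 19.8% (18.4 to 21.2) in shCDK12 + OHT. With OHT most of the fragmented domains had 1 region and were not split, 271 in shNT + OHT and 205 in shCDK12 + OHT. The shares were not matched for width, and fragmented domains were wider than one-piece domains. In shCDK12 a fragmented domain has at least 2 regions that could reach out and a one-piece domain has 1. Fragmented domains lay a median of 49.8 kb (39.2 to 57.2) from the nearest shNT region and one-piece domains 56.4 kb (53.6 to 60.8), and 35 pairs of neighbouring shNT regions were both fragmented.

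Fragmented domains were found on every one of the 22 autosomes. The share of eligible domains was highest on chromosome 20, with 19 of 121 (15.7%, Wilson interval 10.3 to 23.2), and lowest on chromosome 13, with 2 of 50 (4%). Chromosome 1 had the most, 34 of 383. U2OS carries many copy number changes, which alter read density along a chromosome, and copy number was not analysed here.

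Splitting in the opposite direction was also counted, since regions could be joined as well as split in a shCDK12 list. Without OHT, 134 of 4624 autosomal shCDK12 regions under 350 kb overlapped 2 or more shNT regions (2.90%, 2.45 to 3.42), against the 324 of 3606 (8.99%) in the direction studied. With OHT the order was turned, with 194 of 4322 shNT + OHT regions split in shCDK12 + OHT (4.49%, 3.91 to 5.15) and 247 of 4412 shCDK12 + OHT regions split in shNT + OHT (5.60%, 4.96 to 6.32). When the same lowest score was set for every list, the numbers without OHT were 220 of 3606 (6.10%) against 132 of 3575 (3.69%). With OHT they were 189 of 3955 (4.78%) against 209 of 4315 (4.84%), which are nearly equal shares. This score removed regions unequally. All 3874 shNT regions and 3814 of 4896 shCDK12 regions were kept, with 4278 of 4653 in shNT + OHT and 4662 of 4762 in shCDK12 + OHT. An excess of splits in the shCDK12 list was thus seen without OHT under both settings and with OHT under neither. The difference between the OHT states was not tested. The shCDK12 list held fewer reads than the shNT list in both OHT states, and the part of depth was not tested.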

How the data were processed

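EdU-HU-seq was done on 3 samples in each of 4 groups, and the authors deposited 1 merged list of regions per group. The submitters' processing notes name BWA 0.6.2, SAMtools and SICER, and the builds hg19 and mm10 without their roles. The deposited columns used were the region's start and end, its read count (reads summed over merged replicates, not scaled to depth) and its score; how the score was made is not given in the sources used here. Positions are on a grid of 400 bp and were printed counted from 1. Several regions end beyond the hg38 chromosomes, so no sequence or gene annotation was used here.

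Regions were intersected in Python 3.11.15 with numpy 2.4.6, pandas 2.3.3 and scipy 1.17.1, and figures drawn with matplotlib 3.10.9. Read density is the count divided by width in kb, summed over all regions of a list that overlap the domain. A gap was called covered, partly covered or uncovered by the bases that regions of another list overlapped. Shares carry Wilson 95% intervals and medians order-statistic 95% intervals, which cover counting error only. The fragmented domains, classes and comparisons were chosen with earlier results of these data known. Domains were named by a fixed rule: 3 with the most pieces (the first by position of 24 that tied), the widest gaps, the largest share in gaps, the highest or the lowest shNT density, and the largest gap length in each combination of covered and uncovered gaps, with the narrowest domain and the domains next to the width limit. The scripts were tested on simulated data. Alternatives were another overlap rule, joining of near regions, other width limits, narrow regions left out, sex chromosomes included, a common minimum score and other definitions of an uncovered gap and of density.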

Additional observations from a re-analysis of the deposited data

Results flagged for a closer look

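The balance of splitting and joining in the shCDK12 lists relative to the shNT lists had opposite signs with and without OHT. Without OHT, domains split in shCDK12 outnumbered domains split in the reverse direction by 190 (324 against 134), and with OHT the balance was -53 (194 against 247). The difference between the OHT states was not tested, since each group has 1 merged list. The shCDK12 list held fewer reads than the shNT list in both OHT states, and the part of depth was not tested. The lowest listed score differed between the lists, and with all regions under a common minimum score left out the balances were 88 and -20. The numbers of regions compared were unequal, and as shares the latter was 4.78% against 4.84%, so that the opposite sign with OHT was not seen as a difference in share at a common score.

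Chromosome X was outside the rule. Of its 68 shNT domains under 350 kb, 10 were split in shCDK12 (14.7%, Wilson 95% interval 8.19 to 25.0), with 12 gaps of a median of 8.4 kb. In shCDK12 + OHT 5 of these gaps were fully covered and 3 had no base covered, and in shNT + OHT 9 were fully covered. The signal was noted because these rows entered none of the counts of fragmented or one-piece domains and their gaps above. No control list without EdU was used here to set beside it.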

How the results depend on the processing

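No paired analysis was possible because each group is 1 merged list and its columns carry no replicate number, and for the same reason no replicate could be left out. The number of fragmented domains was 324; joining shCDK12 regions up to 10 kb apart left 111, with a median gap of 20 kb, 57.7% of gaps centred in the middle of 3 equal parts, 0% uncovered in shNT + OHT, and 50.5% and 27.0% of domains split in shCDK12 + OHT and shNT + OHT. Pieces at least 50% inside the domain gave 239 domains, 54.1% of gaps in the middle part and 2.72% uncovered in shNT + OHT. A common minimum score gave 220 domains, 51.7% in the middle part and 40.9% split in shCDK12 + OHT. Counting a gap as uncovered when under 50% of it was covered gave 24.4% in shCDK12 + OHT and 10.9% in shNT + OHT. The density of fragmented relative to all eligible domains was 1.11 (0.991 to 1.18), 1.20 with any width or with a common score, 0.940 as all reads over all kb, and 0.868 (0.840 to 0.913) against domains of the same width class. The last setting, and the common score for the balance of splitting and joining (190 to 88 without OHT, -53 to -20 with it), were chosen after seeing the data. The cause of these shifts was not tested beyond what each setting leaves out. The merged lists limit every value to a description.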
